A study of Homo sapiens with 18 samples.

Results

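The endoplasmic reticulum (ER) is where a secreting cell folds the proteins it exports, and the genes described here are 36 human genes for its chaperones, its disulfide machinery, its degradation pathway and the sensors of the unfolded protein response. The 36 members were taken by name, each name matched a single gene of the 61806 in the count table, and 35 of them had enough counts to be tested. They fall into 10 luminal chaperones and co-chaperones, 3 lectin chaperones and glycan sensors, 6 genes of disulfide formation, 10 of ER-associated degradation, 5 stress sensors and transcription factors, and 2 of protein translocation. RNA was measured by poly(A) RNA-seq in HepG2, a human hepatoma cell line of wild-type genotype, and in APOA4-KO, a HepG2 line whose APOA4 gene was edited with CRISPR-Cas9 and which was picked from single colonies. Each line was sampled before hypoxia, in air of 21% oxygen (0 h), and following 24 h or 48 h in 1% oxygen, with 3 libraries in each of the 6 groups, and the p-values measure the spread between these libraries. The study describes its data in general as coming from independent experiments, and for the libraries of a group nothing read here says whether their cultures were separate. The 0 h cells were the only cells outside hypoxia, so hypoxia and time in culture cannot be told apart in a change from 0 h. APOA4-KO is a single edited line, so the edit and any other difference between the lines cannot be told apart either.

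Proteins enter the ER through the translocon and meet chaperones such as BiP (HSPA5), lectins that read their sugar chains, and isomerases that form and shuffle disulfide bonds. Molecules that fail to fold are pulled back to the cytosol and destroyed, which is ER-associated degradation (ERAD). When unfolded protein builds up, the sensors IRE1 (ERN1), PERK (EIF2AK3) and ATF6 start the unfolded protein response, in which IRE1 splices the XBP1 mRNA and PERK slows translation, and XBP1 and ATF6 raise the chaperone genes. Liver cells secrete large amounts of protein and depend on this machinery, and molecular oxygen is the acceptor that the ERO1 oxidases use when they make disulfides. Gene counts do not show XBP1 splicing, cleavage of ATF6 or phosphorylation of PERK.

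Libraries held from 76481820 to 91604947 counts. APOA4 itself, the edited gene, had 702 to 799 counts at 0 h, 1522 to 1763 at 24 h and 1673 to 1968 at 48 h in HepG2. In APOA4-KO it had 607 to 702, 585 to 696 and 551 to 648 counts in the same order. Gene counts do not show whether the edited transcript is intact. All 12 genes of a list of HIF targets rose past the fold limit in each line at 48 h, and the 14 hepatocyte products were counted in every library, with a sum of 63443 to 76676 CPM (counts scaled to a common library size) in HepG2 and 75799 to 94975 CPM in APOA4-KO. Of 11 markers of other cell types 10 were tested, and they summed to 599 to 842 CPM in HepG2 and 473 to 546 CPM in APOA4-KO. Most of this sum was KRT19. Over all libraries ACTA2 had 4588 to 11148 counts, CD68 2373 to 5277, PTPRC 0 to 675 and CD163 0 to 28. In bulk RNA, fewer cells of a type and less RNA per cell cannot be told apart, and the part of these shifts between the lines in the results was not tested. On the first 2 principal components, replicate 1 of APOA4-KO at 24 h lay 31.2 units from the centre of its group, and no other library lay more than 17.1 from its own. The splits of all tested members into higher and lower that rest on that group are given with and without this library. Counts by promoter element, or of members shared by both lines, are given with all libraries only.

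Among the members, levels per length spanned more than 3 orders of magnitude. CALR, the calcium-binding lectin chaperone calreticulin, had the highest FPKM in all 6 groups, from 398 ± 3 in APOA4-KO at 48 h to 717 ± 9.2 in HepG2 at 24 h (mean ± SD, n = 3). In HepG2 at 0 h it was followed by P4HB, the protein disulfide isomerase PDI, at 279.7 ± 1.4 FPKM, by PDIA4 at 208 ± 1.7 FPKM, and by XBP1 at 171 ± 0.7 FPKM. HSPA5 and PDIA6 came next at 150.0 ± 0.86 and 149.9 ± 1.7 FPKM, with libraries that overlapped, so these 2 neighbours could not be ordered. At the lower end stood EIF2AK3 at 1.05 ± 0.12 FPKM, the ERAD gene EDEM3 at 0.723 ± 0.025 FPKM, ERN1 at 0.610 ± 0.087 FPKM and ERO1B at 0.177 ± 0.045 FPKM. DERL3 had 2 counts in all 18 libraries together and was not tested. The FPKM values rest on a fixed length per gene that the deposited values imply, from 1083 bases for SDF2L1 to 25628 bases for DNAJC10, and a longer annotated gene model lowers the FPKM of the same RNA. By GENCODE release 29, exons of 19 of the 36 members share bases with exons of another gene, over 10% of the exonic bases in DNAJB11, PDIA3, PDIA6, SYVN1, DERL3 and EIF2AK3, and the strand setting of the counting is not stated, so reads of the partners cannot be told apart there.

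The promoters of several members carry the sequence by which the unfolded protein response is known to act on them. The ER stress response element (ERSE), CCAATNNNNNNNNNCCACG, is bound by ATF6 together with NF-Y, and ERSE-II, ATTGGNCCACG, is a shorter form. Both were searched on both strands of RefSeq promoter windows (GRCh38.p14, 250 bases before to 50 after the start of transcription), which were at hand for 33 of the 36 members. An exact ERSE lay in a window of 8 of these 33, CALR, CANX, CRELD2, ERO1B, HSP90B1, HSPA5, PDIA6 and XBP1, and an exact ERSE-II in 3, HERPUD1, HYOU1 and SDF2L1. Over all 27305 genes with a window, the shares were 0.0916% for ERSE and 0.0696% for ERSE-II. The XBP1-binding element UPRE, TGACGTGG, lay in the windows of DNAJC10 and HYOU1, against 0.927% of all genes. The cores of the hypoxia response element, ACGTG or GCGTG, lay in 28 of the 33 members but also in 52.4% of all genes, and the ACGTG core is contained in UPRE while the complement of an ERSE end can overlap either core. The sequences below are the elements of the members on which the results turn, read in the direction of transcription with 12 bases on either side, in lower case with the element in capitals. They are shown because members with the same element moved in opposite directions.
HSPA5 (chr9:125241379-125241421, minus strand): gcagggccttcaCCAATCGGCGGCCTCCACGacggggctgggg
HSP90B1 (chr12:103930204-103930351, plus strand, 2 elements): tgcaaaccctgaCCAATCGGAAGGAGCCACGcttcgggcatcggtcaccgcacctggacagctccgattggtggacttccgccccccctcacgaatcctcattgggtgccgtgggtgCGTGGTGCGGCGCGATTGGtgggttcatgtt
CALR (chr19:12938372-12938414, plus strand): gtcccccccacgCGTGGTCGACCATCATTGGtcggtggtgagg
CRELD2 (chr22:49918542-49918584, plus strand): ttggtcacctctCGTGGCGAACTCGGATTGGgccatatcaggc
PDIA6 (chr2:10812841-10812883, minus strand): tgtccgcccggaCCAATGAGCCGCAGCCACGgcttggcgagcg
XBP1 (chr22:28800591-28800633, minus strand): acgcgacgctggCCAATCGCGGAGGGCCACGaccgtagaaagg
HYOU1 (chr11:119057262-119057405, minus strand, 2 ERSE-II, the first joined to a UPRE): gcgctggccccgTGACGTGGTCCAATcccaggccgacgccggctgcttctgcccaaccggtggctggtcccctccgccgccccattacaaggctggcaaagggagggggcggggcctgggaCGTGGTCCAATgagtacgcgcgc
SDF2L1 (chr22:21642102-21642136, plus strand): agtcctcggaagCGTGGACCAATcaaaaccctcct
HERPUD1 (chr16:56932013-56932047, plus strand): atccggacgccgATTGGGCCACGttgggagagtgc
ERO1A (chr14:52695656-52695740, minus strand, no ERSE, 2 hypoxia cores on the complementary strand in capitals): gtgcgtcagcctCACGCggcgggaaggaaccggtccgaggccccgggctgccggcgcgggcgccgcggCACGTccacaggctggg
An element that is a match in letters was not shown here to be bound. Of the 11 members with ERSE or ERSE-II, 8 rose and 2 fell in HepG2 from 0 h to 24 h, and 5 rose and 4 fell in APOA4-KO, with log2 fold changes from −0.22 to 0.61 and from −0.87 to 0.73. Of the 22 members with a window and neither element, 12 rose and 1 fell in HepG2, and 15 rose and 5 fell in APOA4-KO. Over all tested genes, 11.4% rose and 18.3% fell in HepG2, and 21.5% rose and 22.8% fell in APOA4-KO. At 48 h against 0 h, the 11 members with ERSE or ERSE-II ranged from −1.53 to 0.70 in APOA4-KO. Their median, 0.0066, lay beside 0.037 for the 22 members with neither. In HepG2 the medians of the 11 and the 22 were 0.28 and 0.15 at 24 h against 0 h. From 24 h to 48 h they were −0.27 and −0.036. Between the lines they were −0.45 and −0.023 at 24 h, and −0.027 and −0.097 at 48 h. The part of the elements in these differences was not tested.

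After 24 h of hypoxia most of the ER folding genes were higher, and by 48 h many of them had come down again in HepG2. A gene was called at a Benjamini-Hochberg adjusted p under 0.05 in edgeR's quasi-likelihood test, over 19743 genes. From 0 h to 24 h in HepG2, 21 of the 35 members rose, where 11.4% of all tested genes did, and 3 fell, where 18.3% did. From 24 h to 48 h, 5 rose (18.7% of all genes) and 16 fell (11.9%). Of the 21 members that had risen by 24 h, 14 fell again by 48 h, among them HSPA5, HSP90B1, HYOU1, CALR, P4HB and PDIA4. At 48 h against 0 h, 12 members were higher (13.1% of all genes) and 6 lower (14.6%). The median log2 fold change of the members was 0.15 at 24 h and 0.085 at 48 h, against −0.035 and −0.027 for all tested genes. Without TMM scaling, that is with library size alone, the median of all genes moved by up to 0.17, from −0.039 to −0.21 in the line difference at 48 h, and changes are best read against that shift. With library sizes left unscaled, the split at 24 h was 15 risen to 6 fallen, and that from 24 h to 48 h was 9 to 13. With the RLE scaling, the latter was 2 to 17.

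In APOA4-KO most members were likewise higher at 24 h, and at 48 h about as many were below as above their level at 0 h. From 0 h to 24 h, 22 members rose (21.5% of all genes) and 9 fell (22.8%). From 24 h to 48 h, 7 rose (21.9%) and 23 fell (19.4%). At 48 h against 0 h, 13 were higher (23.9%) and 12 lower (25.9%), with a median of 0.038 against −0.068 for all genes. With library sizes left unscaled, this last split was 8 higher to 20 lower. Without replicate 1 of APOA4-KO at 24 h, the splits were 22 to 9 from 0 h to 24 h and 6 to 24 from 24 h to 48 h. At 24 h, 16 members had risen in both lines, and CRELD2, XBP1 and CREB3L3 had fallen in both, although the fall of CRELD2 in HepG2 (−0.22) did not pass the test with the RLE scaling (−0.18, adjusted p = 0.0918). The sum over the 35 members was 11449 ± 30 CPM in HepG2 at 0 h, 14156 ± 68 CPM at 24 h and 11562 ± 73 CPM at 48 h, and 10697 ± 75, 12842 ± 117 and 11549 ± 127 CPM in APOA4-KO (mean ± SD, n = 3). P4HB, CALR and HSPA5 held 46.8% to 52.6% of this sum.

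Between the lines, with TMM scaling, more members were lower than higher in APOA4-KO at each time, as were more of all tested genes, and these splits moved with the scaling. At 0 h, 7 were higher (12.9% of all genes) and 13 lower (17.6%). At 24 h, 12 were higher (23.6%) and 17 lower (24.6%), and without replicate 1 of APOA4-KO at 24 h, 12 were higher and 15 lower. With library sizes left unscaled, the split at 24 h was 14 to 14. At 48 h, 11 were higher (23.5%) and 16 lower (27.3%), and this split was 15 to 13 with the RLE scaling and 7 to 24 with library sizes left unscaled. At 0 h the RLE scaling gave 9 to 10 and DESeq2 9 to 9. The interaction test, of whether the lines changed unequally from 0 h, found 12 members with a greater change upwards (16.8% of all genes) and 11 downwards (15.4%) at 24 h, and 11 (18.6%) and 13 (17.8%) at 48 h. The split at 24 h was 10 to 14 with the RLE scaling and 13 to 12 without replicate 1 of APOA4-KO at 24 h, and the split at 48 h was 4 to 19 with library sizes left unscaled.

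Few members changed by as much as 2-fold, an absolute log2 fold change of 1. At an adjusted p under 0.05, none did in the 3 comparisons within HepG2, where 3.08% (24 h against 0 h), 2.18% (48 h against 0 h) and 2.12% (48 h against 24 h) of all genes did, nor between the lines at 0 h (4.31%) or in the line difference at 24 h (2.59%). In APOA4-KO, ERO1A alone passed this limit at 24 h against 0 h (5.88% of all genes) and CRELD2 alone at 48 h against 24 h (5.66%), where without replicate 1 of APOA4-KO at 24 h no member did. SDF2L1, CRELD2, ERN1 and ERO1A passed it at 48 h against 0 h (12.2%). Between the lines, SDF2L1 and CREB3L3 passed at 24 h (7.77%), and SDF2L1, CRELD2, MANF and ERN1 at 48 h (13.6%). The line difference in the change to 48 h passed for SDF2L1, CRELD2 and ERN1 (7.42%).

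**Figure D1:**
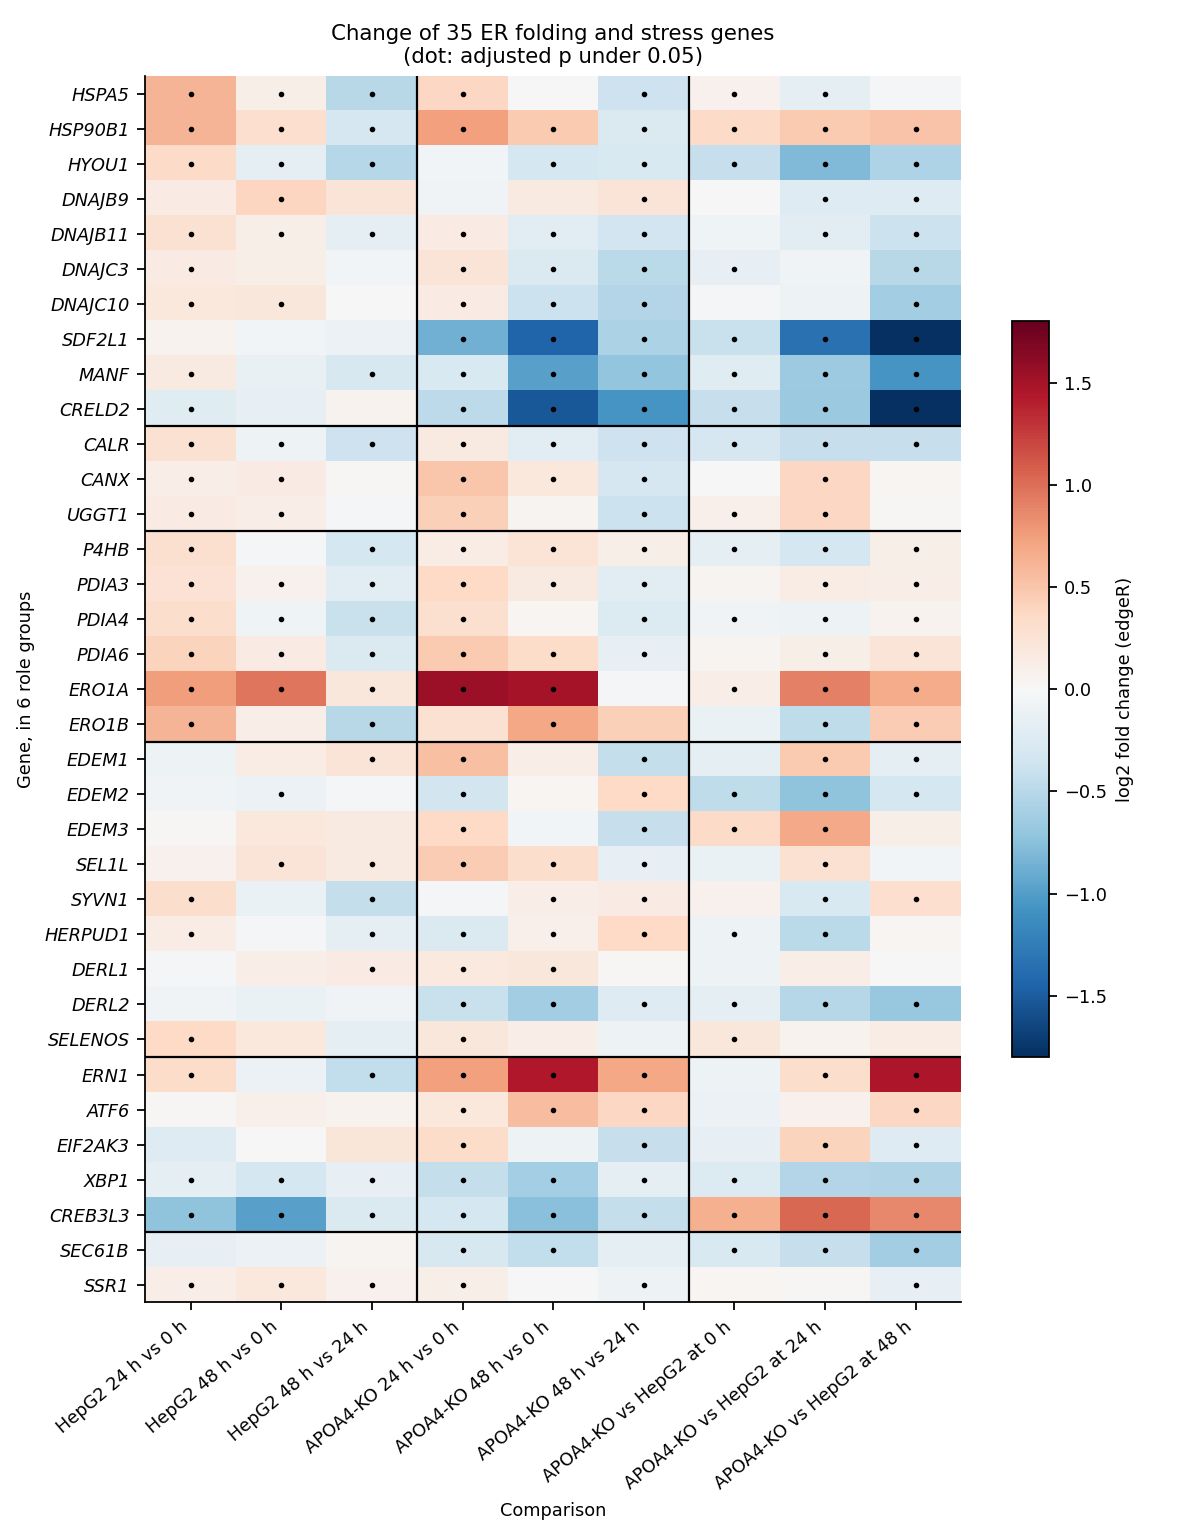
Log2 fold change of the 35 members (rows, in the 6 role groups) in 9 comparisons (columns), with a dot where the adjusted p was under 0.05. The columns at 24 h against 0 h are mostly red in both lines, and the deepest blue is that of SDF2L1 and CRELD2 in APOA4-KO against HepG2 at 48 h.

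Of the luminal chaperones, HSPA5 (BiP, the Hsp70 of the ER, chr9:125234853-125241330, minus strand) rose and fell back. It stood at 983, 984 and 976 CPM in HepG2 at 0 h, at 1474, 1485 and 1539.9 CPM at 24 h and at 1059, 1067 and 1052 CPM at 48 h. In APOA4-KO the values were 1045, 1029.7 and 1029.8 CPM at 0 h, 1338, 1356 and 1344 CPM at 24 h and 1012, 1065 and 1042 CPM at 48 h. All libraries at 24 h lay above all libraries of their line at 0 h and 48 h. The rise at 24 h was 0.61 ± 0.018 on the log2 scale in HepG2 (log2 fold change ± SE, adjusted p = 6.81e-15) and 0.38 ± 0.018 in APOA4-KO (adjusted p = 3.05e-12), and the difference between the lines was −0.23 ± 0.026 (adjusted p = 8.62e-07). At 48 h the libraries of the lines overlapped, with a log2 difference of −0.027 ± 0.018 (adjusted p = 0.236). This difference passed the test as lower in APOA4-KO with library sizes left unscaled (−0.18, adjusted p = 2.15e-08) and with limma on log2(FPKM + 1) (−0.18, adjusted p = 4.21e-07).

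HSP90B1 (GRP94, the Hsp90 of the ER, chr12:103930107-103953645, plus strand) was higher in APOA4-KO at each time. In HepG2 it stood at 586, 587 and 584 CPM at 0 h, 876, 872 and 925 CPM at 24 h and 723, 717 and 717 CPM at 48 h. The APOA4-KO libraries gave 738, 746 and 739 CPM at 0 h, 1203, 1271 and 1219 CPM at 24 h and 1016, 1032 and 1047 CPM at 48 h. The groups of the lines did not overlap at any time, and the log2 difference was 0.34 ± 0.022, 0.47 ± 0.022 and 0.52 ± 0.022 in order of time (adjusted p = 6.18e-10, 1.95e-12 and 2.74e-13). HSP90B1, at 13377 bases, lies in the eighth of the longest tested genes with a mean over 5 CPM (from 11485 bases). The median differences of that eighth between the lines were 0.055, 0.37 and 0.18 in the same order. The part of gene length in the difference of HSP90B1 was not tested. HYOU1 (GRP170, a nucleotide exchange factor of BiP) went the other way between the lines, with 676 ± 3.2, 855 ± 8.9 and 598 ± 6.9 CPM in HepG2 and 508 ± 5.2, 491 ± 12 and 407 ± 11 CPM in APOA4-KO (mean ± SD, n = 3). Its change at 24 h passed the test in HepG2 (0.34 ± 0.021, adjusted p = 3.36e-10) and not in APOA4-KO (−0.047 ± 0.021, adjusted p = 0.0789), and the line difference in this change was −0.39 ± 0.03 (adjusted p = 1.07e-08). The fall in APOA4-KO did pass with DESeq2 (−0.05, adjusted p = 0.0413) and with library sizes left unscaled (−0.08, adjusted p = 0.00163). It also passed with limma on log2(FPKM + 1) (−0.07, adjusted p = 0.0018) and without replicate 3 of APOA4-KO at 48 h (−0.05, adjusted p = 0.0465).

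SDF2L1, MANF and CRELD2, 3 ER-resident proteins that are induced in ER stress, fell in APOA4-KO by 48 h while the change in HepG2 did not pass the test, and the lines differed in this change for each. SDF2L1 (chr22:21642261-21644298, plus strand) works with the BiP co-chaperone DNAJB11. It stood at 22.2, 21.5 and 23.03 CPM in HepG2 at 0 h, 22.7, 24.9 and 22.2 CPM at 24 h and 20.3, 21.1 and 23.2 CPM at 48 h. The values in APOA4-KO were 17.3, 16.1 and 17.1 CPM at 0 h, 7.78, 10.04 and 9.77 CPM at 24 h and 6.46, 6.303 and 5.896 CPM at 48 h. The HepG2 groups overlapped at all times, and the APOA4-KO groups overlapped neither with HepG2 nor with each other. From 0 h to 48 h the log2 change was −0.046 ± 0.081 in HepG2 (adjusted p = 0.771) and −1.44 ± 0.086 in APOA4-KO (adjusted p = 5.33e-11), a 2.704-fold fall, and the line difference was −1.39 ± 0.12 (adjusted p = 1.98e-08). At 48 h SDF2L1 was 3.46-fold lower in APOA4-KO than in HepG2.

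MANF (chr3:51385047-51389397, plus strand), a secreted protein that binds BiP, stood at 49.01, 47.9 and 47.6 CPM in HepG2 at 0 h, 53.7, 54.9 and 53.1 CPM at 24 h and 44.8, 46.6 and 40.6 CPM at 48 h. Its level in APOA4-KO was 41.9, 41.8 and 40.8 CPM at 0 h, 31.3, 36.7 and 34.7 CPM at 24 h and 20.8, 20.1 and 21.96 CPM at 48 h. Each step down in APOA4-KO was free of overlap, and at 48 h MANF was 2.097-fold lower there than in HepG2 (log2 difference −1.07 ± 0.056, adjusted p = 7.9e-12). The change from 0 h to 48 h was −0.13 ± 0.055 in HepG2 (adjusted p = 0.0893) and −0.98 ± 0.056 in APOA4-KO (adjusted p = 2.87e-11), with a line difference of −0.85 ± 0.079 (adjusted p = 6.18e-08).

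CRELD2 (chr22:49918167-49927540, plus strand), an ER protein with isomerase-like motifs, stood at 28.7, 30.5 and 29.4 CPM in HepG2 at 0 h, 27.02, 25.04 and 24.2 CPM at 24 h and 25.03, 26.1 and 28.5 CPM at 48 h. In APOA4-KO it stood at 22.7, 20.8 and 22.9 CPM at 0 h, 17.9, 15.2 and 14.9 CPM at 24 h and 8.54, 7.25 and 7.16 CPM at 48 h. The 3 APOA4-KO libraries at 48 h were the lowest of all 18, below every library at 24 h. The change from 0 h to 48 h was −0.15 ± 0.077 in HepG2 (adjusted p = 0.168) and −1.53 ± 0.082 in APOA4-KO (adjusted p = 1.08e-11), and the line difference was −1.38 ± 0.11 (adjusted p = 1.2e-08). At 48 h CRELD2 was 3.47-fold lower in APOA4-KO than in HepG2. In this comparison of the lines, the tested genes with a mean over 5 CPM also shifted with their length, from a median log2 difference of −0.24 in the eighth of the shortest genes (up to 2493 bases) to 0.18 in the eighth of the longest (from 11485 bases). SDF2L1, at 1083 bases, and MANF, at 2187 bases, lie in the shortest eighth, and CRELD2, at 5288 bases, in the fourth, whose median was −0.070. At 24 h, where SDF2L1 was also past the fold limit, the medians of the shortest and longest eighths were −0.35 and 0.37. The part of gene length in these falls was not tested.

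The DNAJ co-chaperones, which hand clients to BiP, moved less. DNAJB9 (ERdj4, chr7:108569568-108574850, plus strand), which represses IRE1 and is a usual marker of its activity, stood at 12.8, 12.6 and 13.001 CPM in HepG2 at 0 h, 12.8, 13.6 and 16.3 CPM at 24 h and 16.98, 16.2 and 16.9 CPM at 48 h. The APOA4-KO libraries gave 12.9, 13.3 and 11.8 CPM at 0 h, 12.4, 12.3 and 11.7 CPM at 24 h and 15.9, 12.6 and 14.003 CPM at 48 h. It was higher at 48 h than at 0 h in HepG2 (0.38 ± 0.087, adjusted p = 0.00237), the change in APOA4-KO was 0.16 ± 0.087 (adjusted p = 0.145), and the line difference was −0.22 ± 0.12 (adjusted p = 0.183). DNAJB11, DNAJC3 and DNAJC10 had fallen at 48 h in APOA4-KO, with log2 changes of −0.20 ± 0.038, −0.26 ± 0.041 and −0.38 ± 0.048. In HepG2 the same changes were 0.11 ± 0.038, 0.10 ± 0.041 and 0.21 ± 0.048, and that of DNAJC3 did not pass the test (adjusted p = 0.0746). The line difference passed the test for all 3, up to −0.59 ± 0.068 for DNAJC10 (ERdj5, a disulfide reductase, adjusted p = 1.16e-06). DNAJB11 passed the test as higher in HepG2 at 48 h, but not without replicate 2 of HepG2 at 0 h (log2 change 0.10, adjusted p = 0.084).

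The 3 genes that handle sugar chains rose at 24 h in both lines, but the rise of CANX in HepG2 did not pass the test with library sizes left unscaled (0.047, adjusted p = 0.127) or with limma on log2(FPKM + 1) (0.047, adjusted p = 0.163). CALR stood at 1742 ± 13, 2116 ± 24 and 1631 ± 36 CPM in HepG2 and at 1416 ± 8.5, 1587 ± 26 and 1227 ± 16 CPM in APOA4-KO at 0 h, 24 h and 48 h (mean ± SD, n = 3). It was lower in APOA4-KO at each time, by a log2 difference of −0.41 ± 0.017 at 48 h (adjusted p = 1.57e-13). CALR, at 2863 bases, lies in the second eighth by length, whose median difference between the lines at 48 h was −0.14. The part of gene length in its difference was not tested. CANX (calnexin, the membrane-bound lectin chaperone) stood at 536 ± 3.5 CPM in HepG2 and 536 ± 1.7 CPM in APOA4-KO at 0 h (adjusted p = 0.984). At 24 h it was higher in APOA4-KO, with 755 ± 24 against 583 ± 5.6 CPM (0.37 ± 0.02, adjusted p = 1.38e-11). UGGT1, which tags unfolded glycoproteins for another round of folding, was higher there at 24 h as well (0.37 ± 0.029). By 48 h the lines differed by 0.041 ± 0.02 for CANX and 0.023 ± 0.029 for UGGT1, and neither passed the test. With the RLE scaling both passed as higher in APOA4-KO (0.092, adjusted p = 0.000725, and 0.074, adjusted p = 0.0425), and with library sizes left unscaled both passed as lower (−0.11, adjusted p = 0.000443, and −0.13, adjusted p = 0.00117). CANX, at 14065 bases, and UGGT1, at 11596 bases, lie in the eighth of the longest genes, whose median difference between the lines at 24 h was 0.37. The part of gene length in their differences was not tested.

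In the disulfide group the largest change was that of ERO1A (chr14:52639916-52695900, minus strand), the oxidase that recharges PDI and is a known target of hypoxia. It stood at 87.3, 93.4 and 86.01 CPM in HepG2 at 0 h, 147, 151 and 151 CPM at 24 h and 174, 168 and 178 CPM at 48 h. The values in APOA4-KO were 88.5, 98.3 and 104 CPM at 0 h, 286, 287 and 268 CPM at 24 h and 275, 275 and 272 CPM at 48 h. The lines overlapped at 0 h, and at 24 h and 48 h every APOA4-KO library lay above every HepG2 library. The change from 0 h to 24 h was 0.75 ± 0.046 in HepG2 (adjusted p = 2.88e-10) and 1.53 ± 0.046 in APOA4-KO (adjusted p = 5.08e-15), a 2.89-fold rise. At 48 h it was 0.96 ± 0.046 in HepG2 and 1.502 ± 0.046 in APOA4-KO. The lines differed in their rise to 24 h by 0.78 ± 0.064 (adjusted p = 2.81e-08), and in their rise to 48 h by 0.54 ± 0.064 (adjusted p = 1.74e-06).

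ERO1B (chr1:236215555-236281985, minus strand), the second ERO1 oxidase, had the lowest level of the tested members. It stood at 2.08, 3.35 and 2.74 CPM in HepG2 at 0 h, 4.18, 4.16 and 4.08 CPM at 24 h and 2.96, 2.93 and 2.94 CPM at 48 h. Its level in APOA4-KO was 2.11, 2.52 and 2.84 CPM at 0 h, 3.201, 3.21 and 2.65 CPM at 24 h and 4.82, 3.92 and 3.42 CPM at 48 h. In HepG2 it was higher at 24 h than at 0 h (0.61 ± 0.18, adjusted p = 0.0124), but not past the test without replicate 1 of HepG2 at 0 h (0.45, adjusted p = 0.0777). Its change at 48 h in APOA4-KO was 0.70 ± 0.18 (adjusted p = 0.00252), and the line difference at 48 h did not pass the test (0.59 ± 0.25, adjusted p = 0.0755). The isomerases P4HB, PDIA3, PDIA4 and PDIA6 rose at 24 h in both lines, by 0.29 ± 0.015, 0.27 ± 0.022, 0.32 ± 0.016 and 0.41 ± 0.023 in HepG2 and by 0.14 ± 0.015, 0.36 ± 0.022, 0.29 ± 0.016 and 0.47 ± 0.023 in APOA4-KO. P4HB stood at 3824 ± 35 CPM in HepG2 at 24 h and 3060.0 ± 38 CPM at 48 h, and at 3073 ± 38 and 3300.5 ± 56 CPM in APOA4-KO. All 6 genes of the group were higher in APOA4-KO at 48 h, but with library sizes left unscaled P4HB, PDIA3 and PDIA4 had log2 differences of −0.041, −0.025 and −0.090, and that of ERO1B did not pass the test (0.31, adjusted p = 0.158). P4HB (0.11, 11374 bases) lies in the seventh eighth by length, whose median difference at 48 h was 0.11. PDIA3 (0.13, 12030 bases) lies in the longest, whose median was 0.18. The eighths of PDIA4, PDIA6 and ERO1A had medians of −0.14, −0.10 and 0.036. ERO1B, with means under 5 CPM, was outside the eighths. The part of gene length in these differences was not tested.

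The 9 tested ERAD genes had no common direction. HERPUD1 (chr16:56932048-56944863, plus strand), a membrane protein of the ERAD complex that is among the most stress-responsive genes of the pathway, stood at 171, 166 and 168 CPM in HepG2 at 0 h, 188, 183 and 184 CPM at 24 h and 167, 164 and 166 CPM at 48 h. In APOA4-KO it stood at 155, 163 and 158 CPM at 0 h, 135, 129 and 133 CPM at 24 h and 170.5, 172 and 166 CPM at 48 h. At 24 h it had risen in HepG2 (0.14 ± 0.025, adjusted p = 0.000294) and fallen in APOA4-KO (−0.26 ± 0.025, adjusted p = 5.07e-08), with a line difference of −0.40 ± 0.036 (adjusted p = 6.84e-08). With library sizes left unscaled, the rise in HepG2 was 0.065 and did not pass the test (adjusted p = 0.065).

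At 24 h the lines parted on the mannosidase-like EDEM proteins, which mark misfolded glycoproteins for removal. In APOA4-KO against HepG2, EDEM1 and EDEM3 were higher (0.48 ± 0.069 and 0.68 ± 0.073), and EDEM2 was lower (−0.72 ± 0.031, adjusted p = 5.79e-13). The latter stood at 144 ± 1.1, 138 ± 1.2 and 134 ± 1.2 CPM in HepG2 and at 105 ± 4.2, 83.7 ± 2.8 and 107 ± 1.6 CPM in APOA4-KO. EDEM3, at 18987 bases, lies in the eighth of the longest genes, whose median at 24 h was 0.37, and EDEM2, at 1925 bases, in that of the shortest, whose median was −0.35. EDEM1, at 6889 bases, lies in the sixth, whose median was 0.092. The part of gene length in this parting was not tested. Of the ubiquitin ligase complex, the adaptor SEL1L was higher in APOA4-KO at 24 h (0.27 ± 0.052) and the ligase SYVN1 (HRD1) was lower (−0.27 ± 0.044). SEL1L, at 9762 bases, lies in the seventh eighth, whose median at 24 h was 0.21, and SYVN1, at 5617 bases, in the fifth (0.038). The part of gene length in these 2 differences was not tested either. The channel protein DERL2 was lower at 24 h (−0.51 ± 0.058) and at 48 h (−0.68 ± 0.059, adjusted p = 9.52e-09), with 14.9 ± 1.2 against 23.8 ± 0.21 CPM. DERL1 and SELENOS, which act beside it, differed between the lines at 48 h by −0.010 ± 0.046 and 0.13 ± 0.069, and neither passed the test.

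Among the sensors, ERN1 (chr17:64039142-64130819, minus strand), which encodes the kinase and RNase IRE1, had the largest difference between the lines. It stood at 12.5, 9.87 and 12.8 CPM in HepG2 at 0 h, 14.3, 14.8 and 15.2 CPM at 24 h and 11.002, 11.1 and 10.6 CPM at 48 h. The APOA4-KO libraries gave 11.1, 10.8 and 11.2 CPM at 0 h, 16.8, 20.3 and 18.4 CPM at 24 h and 28.7, 30.7 and 30.5 CPM at 48 h. The lines overlapped at 0 h, and at 48 h the lowest APOA4-KO library was above every HepG2 library of any time. The change from 0 h to 48 h was −0.11 ± 0.084 in HepG2 (adjusted p = 0.408) and 1.44 ± 0.084 in APOA4-KO (adjusted p = 3.54e-11), a 2.71-fold rise, and the line difference was 1.55 ± 0.12 (adjusted p = 4.71e-09). ERN1, at 19635 bases, lies in the eighth of the longest genes, whose median difference between the lines at 48 h was 0.18. The part of gene length in its rise was not tested.

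XBP1 (chr22:28794555-28800597, minus strand), whose mRNA IRE1 splices, fell in both lines. It stood at 519, 519.9 and 517 CPM in HepG2 at 0 h, 465, 460.3 and 467 CPM at 24 h and 410.5, 418 and 424 CPM at 48 h. The values in APOA4-KO were 445, 432 and 437 CPM at 0 h, 316, 325 and 331 CPM at 24 h and 280.4, 285 and 292 CPM at 48 h. No 2 of the groups of a line overlapped, and APOA4-KO was lower at each time. The change from 0 h to 48 h was −0.31 ± 0.021 in HepG2 (adjusted p = 1.73e-09) and −0.62 ± 0.021 in APOA4-KO (adjusted p = 1.44e-14), with a line difference of −0.30 ± 0.03 (adjusted p = 1.26e-07). XBP1, at 3094 bases, lies in the second eighth by length. The medians of that eighth between the lines were −0.093, −0.24 and −0.14 at 0 h, 24 h and 48 h. The part of gene length in the lower level of XBP1 was not tested.

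CREB3L3 (chr19:4153601-4173054, plus strand), the liver transcription factor CREB-H that is cleaved like ATF6, stood at 10.4, 9.97 and 11.2 CPM in HepG2 at 0 h, 6.64, 5.33 and 7.21 CPM at 24 h and 5.64, 5.103 and 5.24 CPM at 48 h. Its level in APOA4-KO was 16.4, 16.6 and 16.1 CPM at 0 h, 12.98, 11.97 and 14.4 CPM at 24 h and 9.65, 9.81 and 9.73 CPM at 48 h. It was higher in APOA4-KO at each time, with no overlap, by 0.64 ± 0.094, 1.04 ± 0.096 and 0.87 ± 0.097 (adjusted p = 3.33e-05, 2.92e-08 and 3.26e-07), and lower at 48 h than at 0 h in both lines. The line difference in the change to 48 h was 0.23 ± 0.13 (adjusted p = 0.208). ATF6 was 0.56 ± 0.064 higher at 48 h than at 0 h in APOA4-KO (adjusted p = 4.21e-07), with 43.98 ± 0.96 and 64.9 ± 5.6 CPM, against 0.085 ± 0.063 in HepG2 (adjusted p = 0.39). ATF6, at 14581 bases, lies in the eighth of the longest genes, whose median change to 48 h was 0.20 in APOA4-KO and 0.066 in HepG2. EIF2AK3 was higher in APOA4-KO than in HepG2 at 24 h (0.41 ± 0.087), with 24.7 ± 2.6 against 18.6 ± 1.1 CPM. At 48 h it was lower there (−0.23 ± 0.087, adjusted p = 0.0321), but not past the test with the RLE scaling (−0.18, adjusted p = 0.0919) or without replicate 2 of APOA4-KO at 48 h (−0.15, adjusted p = 0.186). EIF2AK3, at 21227 bases, also lies in the eighth of the longest genes, with its median of 0.37 at 24 h. Of the translocation genes, SEC61B, a subunit of the translocon channel, was lower in APOA4-KO at 0 h, 24 h and 48 h (−0.28 ± 0.062, −0.41 ± 0.063 and −0.62 ± 0.063), and SSR1, of the associated TRAP complex, was lower at 48 h (−0.15 ± 0.027). SEC61B, at 1236 bases, lies in the eighth of the shortest genes, whose medians were −0.12, −0.35 and −0.24 in the same order. The part of gene length in the rise of ATF6 and in the differences of EIF2AK3 and SEC61B was not tested.

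**Figure D2:**
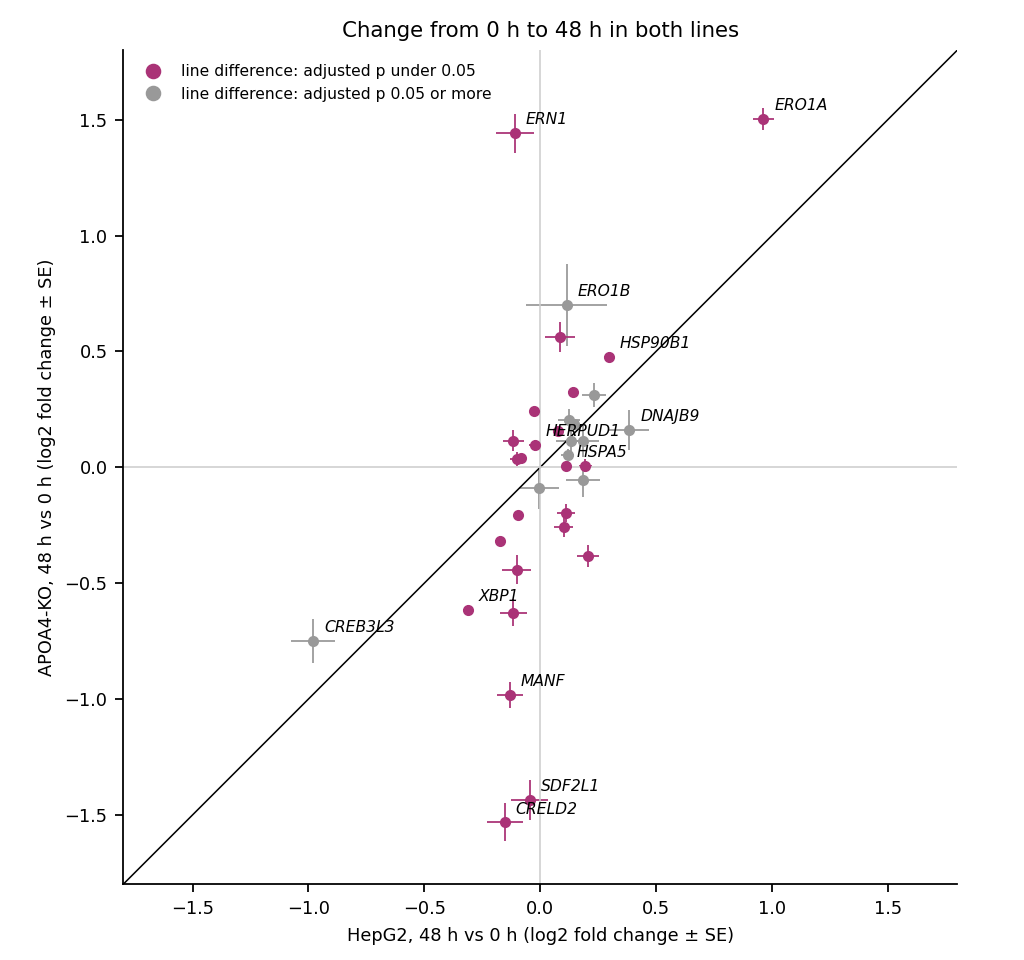
Log2 fold change from 0 h to 48 h in HepG2 (x) and APOA4-KO (y) for the 35 members, with SE bars and the line of equal change. ERN1 and ERO1A lie above the line, SDF2L1, CRELD2 and MANF far below it, and the 24 members with a line difference at an adjusted p under 0.05 are in colour.

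The wider pathway was counted over 5 further lists, and in the comparison of the lines at 48 h their counts stand beside 23.5% of all tested genes higher and 27.3% lower. Of 12 genes listed for the PERK branch of the response, 5 were higher and 4 lower in APOA4-KO than in HepG2 at 48 h, with a median log2 difference of 0.23 against −0.038 for all genes. PPP1R15A (GADD34, which restores translation after PERK has slowed it) stood at 74.8 to 78.9 CPM in APOA4-KO and 23.3 to 24.4 CPM in HepG2 (1.68 ± 0.058, adjusted p = 1.79e-14), and rose by 1.98 ± 0.059 from 0 h in APOA4-KO. ASNS, an ATF4 target that makes asparagine, was higher by 1.09 ± 0.048, and NUPR1 was lower (−1.06 ± 0.059). NUPR1 was already lower in APOA4-KO at 0 h, with a mean of 26.0 against 88.3 CPM. At 48 h its mean was 25.1 CPM in APOA4-KO and 52.2 CPM in HepG2. CEBPB was higher by 1.37 ± 0.3, but its APOA4-KO libraries at 48 h ran from 17.6 to 37.6 CPM. Short of the fold limit, mean CPM was lower in APOA4-KO for ATF4 (231 against 249), TRIB3 (186 against 261) and SESN2 (21.4 against 38.6). It was higher for ATF3 (12.3 against 6.45) and PPP1R15B (42.2 against 32.6). In HepG2 itself, 1 of the 12 rose and 8 fell from 0 h to 48 h, with a median of −0.51 against −0.027 for all genes, of which 13.1% rose and 14.6% fell. In APOA4-KO 5 rose and 3 fell, with a median of 0.077 against −0.068, where 23.9% of all genes rose and 25.9% fell.

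Of 26 genes of the translocon, signal peptidase and oligosaccharyl transferase, 4 were higher and 17 lower in APOA4-KO at 48 h, with a median of −0.22, and TUSC3, an oxidoreductase subunit of the transferase, was past the fold limit (−1.75 ± 0.28, adjusted p = 2.32e-05). Of 29 further oxidoreductases and chaperones, 8 were higher and 13 lower (median −0.19). Before hypoxia, at 0 h, 2 of the 29 were already past the fold limit, both higher in APOA4-KO. Over all genes 4.31% passed it there, in either direction. QSOX1, a sulfhydryl oxidase of the secretory pathway, was higher at 172 to 177 CPM against 42.5 to 44.2 CPM (2.002 ± 0.04, adjusted p = 7.09e-18), PDIA2 was higher from a low level (2.26 ± 0.37), and CNPY2 was lower (−1.33 ± 0.047). Among 27 further ERAD genes, 10 were higher and 9 lower (median 0.0075), and UFD1, of the complex that draws proteins out of the membrane, stood at 11.3 to 12.3 CPM against 34.9 to 38.1 CPM (−1.67 ± 0.054, adjusted p = 7.46e-15). Among 18 further sensors and transcription factors, 8 were higher and 5 lower (median 0.12), none past the fold limit in this comparison.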

How the data were processed

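Poly(A) RNA was sequenced in 18 libraries, 3 for each line and time. The deposited count table holds the authors' raw counts per gene, and the deposited FPKM table holds values the authors normalised by gene length and depth. The submitters' processing notes name fastp, HISAT2, StringTie and GRCh38.p13. For quantification the study's methods name featureCounts, and neither which of these tools made the count table nor the strand setting is given in the sources used here.

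The counts were filtered with filterByExpr, scaled by TMM and fitted over all 6 groups with edgeR 4.0.16 (glmQLFit and glmQLFTest, R 4.3.3), with Benjamini-Hochberg adjustment over 19743 genes in each of 11 comparisons. The fits were tested on simulated counts with the same spread set for all genes. A first run missed some changed genes of low count, and the criterion for a pass was then limited to genes with more counts. CPM are TMM-scaled, and the FPKM were used for levels only. Promoters came from RefSeq (GRCh38.p14), gene models from GENCODE 29. Libraries of a group correlated at 0.979 to 0.987. The comparisons from 0 h share the 0 h libraries.

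The members, the lists and the tests were chosen with earlier results of these data known. Values of every library were given for members past the fold limit in any comparison and for 10 members chosen by name. From each further list, at most the 3 genes per direction with the largest change past the fold limit at 48 h were named. The list for the PERK branch is the exception, and all 12 of its genes were named. The alternatives were RLE scaling, library size alone, no filter on low counts, DESeq2 1.42.0, a replicate block, limma 3.58.1 on the log2 of the deposited FPKM plus 1, only the groups compared, and each library left out.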

Additional observations from a re-analysis of the deposited data

Results flagged for a closer look

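3 members differed between the lines in their change from 0 h to 48 h by more than 2-fold, at an adjusted p under 0.05 in the interaction test of edgeR. SDF2L1 and CRELD2 fell in APOA4-KO, while their log2 changes in HepG2 (−0.046, adjusted p = 0.771, and −0.15, adjusted p = 0.168) did not pass the test, and the line differences were −1.39 and −1.38. ERN1 rose in APOA4-KO, while its change in HepG2 (−0.11, adjusted p = 0.408) did not pass the test, and the line difference was 1.55. In each, all 3 APOA4-KO libraries at 48 h lay outside the range of the HepG2 libraries.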

How the results depend on the processing

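Of 9625 values of a member in a comparison under 25 alternatives, 9099 kept their direction and their side of the threshold, 295 lost and 191 gained the call, and 40 changed sign. Every total of called members, higher and lower together, stayed within 1.5 times its value, but the splits moved further with the scaling. With library size alone, the members called higher went from 11 to 4 in the line difference at 48 h, from 13 to 8 in APOA4-KO from 0 h to 48 h and from 5 to 9 in HepG2 from 24 h to 48 h, where the RLE scaling gave 2. With single libraries left out, the total was 16 to 20 between the lines at 0 h, 27 to 30 at 24 h and 23 to 27 at 48 h. In HepG2 it was 22 to 25 from 0 h to 24 h, 17 to 22 from 0 h to 48 h and 16 to 22 from 24 h to 48 h, and in APOA4-KO 27 to 32, 24 to 27 and 27 to 30. For the line difference it was 20 to 25 at 24 h and 23 to 25 at 48 h. Under the other alternatives the counts lay between 17 and 32. Of 272 calls, 60 were lost under at least 1 alternative, of which 1 had an absolute log2 fold change of 0.5 or more, that of ERO1B in HepG2 at 24 h.

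The sign changes occurred with library size alone and with limma on log2(FPKM + 1), given in that order. Between the lines at 48 h these were CANX (−0.11 and −0.11), UGGT1 (−0.13 and −0.12), P4HB (−0.041 and −0.040), PDIA3 (−0.025 and −0.024), PDIA4 (−0.090 and −0.089) and HERPUD1 (−0.12 and −0.11). In APOA4-KO from 0 h to 48 h these were HSPA5 (−0.15 and −0.15), UGGT1 (−0.11 and −0.10), PDIA3 (−0.0015 and −0.0010), PDIA4 (−0.12 and −0.12), EDEM2 (−0.12 and −0.12), SYVN1 (−0.044 and −0.041), HERPUD1 (−0.064 and −0.061) and SSR1 (−0.15 and −0.14). In APOA4-KO from 24 h to 48 h these were P4HB (−0.027 and −0.027). In the line difference at 48 h these were CANX (−0.13 and −0.13), PDIA3 (−0.090 and −0.088), PDIA4 (−0.050 and −0.050), EDEM2 (−0.037 and −0.036) and HERPUD1 (−0.055 and −0.054). Neither of these settings corrects for the composition of the libraries.

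Replicate numbers did not pair the samples. Over 45 pairs of same-numbered libraries from different groups, the deviations from the group means correlated at −0.14 to 0.051. Over the differently numbered pairs from different groups the range was −0.082 to 0.14. With the replicate block, the counts of called members were 20, 29 and 26 between the lines at 0 h, 24 h and 48 h, 24, 17 and 20 in HepG2 and 31, 25 and 29 in APOA4-KO (24 h against 0 h, 48 h against 0 h, 48 h against 24 h), and 23 and 24 for the line difference.

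The values that changed sign lay between −0.15 and −0.0010 under these settings. ERO1B, the member with the fewest counts, had the widest standard errors.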
